A study of Mus musculus with 2 samples.

Results

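The transcripts of 9 complement genes were followed through the cell classes of the fracture callus by scRNA-seq. The callus is the tissue of cartilage, fibrous stroma, new bone and immune cells that bridges a broken bone. The genes encode the C1q chains (C1qa, C1qb, C1qc), the protease C1s (C1s1), the components C3 and C4 (C3, C4b), the C1 inhibitor (Serping1) and the receptors for the fragments C3a and C5a (C3ar1, C5ar1). They were chosen by name, as the rows of these symbols in the count matrices, and made up 9 of the 32285 genes in each matrix. Levels are given as counts per 1000000 (CPM), the UMIs of a gene per 1000000 UMIs of all genes in a class, where a UMI (unique molecular identifier) stands for 1 captured RNA molecule.

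The calluses came from wild-type C57BL/6J mice with a femoral fracture. After enzyme digestion, cells were loaded on a 10x Chromium instrument with 3′ chemistry. The design names calluses from 5 mice at 10 days post fracture (dpf) and from 5 mice at 20 dpf, but no label ties either of the 2 libraries, MGJ and MGJ2, to a day, and the mice pooled in a library cannot be separated. The libraries are therefore described side by side, with no comparison between days, no mean over libraries and no p-value. Both libraries were from wild-type mice with the same injury, and no uninjured bone was analysed here.

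Complement is a cascade of plasma proteins that tags targets for removal. In the classical pathway, hexamers of the C1q chains bind the target and the attached proteases C1r and C1s cleave C4 and C2, and the convertase so formed cleaves C3, on which all pathways meet. The released fragments C3a and C5a call in and activate myeloid cells through their receptors, and the C1 inhibitor blocks C1r and C1s. The liver makes most plasma complement, except for C1q, which comes largely from macrophages and immature dendritic cells.

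Library MGJ held 14295 barcodes and 135304426 UMIs, and library MGJ2 held 8009 barcodes and 61130834 UMIs, with medians of 5026 and 4952 UMIs per barcode. After removal of barcodes with few genes, many mitochondrial UMIs or a high doublet score, 12080 cells were kept in MGJ and 7346 in MGJ2. The libraries shared 19 barcode sequences, of which 12 were kept in each. Cells were clustered without the complement genes and named from marker lists, so class names end in "-like". In MGJ 2464 cells (20.4%) were left unnamed, mostly a single cluster of 2189 low-UMI cells whose best list was neutrophil, against 167 cells (2.27%) in MGJ2. The libraries differed in make-up: MGJ held 1121 stromal cells (fibroblast-, pericyte or smooth muscle-, tenocyte- and osteoblast-like) and 2666 chondrocyte cells (chondrocyte- and hypertrophic chondrocyte-like), whereas MGJ2 held 26 and 111. Stromal levels in MGJ2 therefore rest on 592413 UMIs, against 16671161 in MGJ. The pooled myeloid group held macrophage-, monocyte-, neutrophil-, immature neutrophil-, myeloid progenitor-, osteoclast-, dendritic- and plasmacytoid dendritic-like cells. It did not hold the mast or basophil-like cells of MGJ2. The class labels went with their markers: Col2a1, the main cartilage collagen, stood at 53670 CPM in chondrocyte-like cells and 428 CPM in macrophage-like cells of MGJ, and the macrophage marker Adgre1 stood at 1.72 and 290 CPM. Col2a1 stood at 628 CPM even in pre-B cell-like cells of MGJ and 43.4 CPM in those of MGJ2. Pre-B cell-like cells therefore serve as the reference for the level at which a gene is found in cells that should lack it. Intervals are 95% intervals for counting error only, since each library is a single sample.

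The genes lie on 5 chromosomes of GRCm38, all on the minus strand. C1qa (chr4:136895917-136898803), C1qc (chr4:136889804-136893065) and C1qb (chr4:136880129-136886187) lie within 18675 bases. C1s1 (chr6:124530345-124542359) lies 6901 bases from C1ra, and the remaining genes are C3ar1 (chr6:122847138-122856161), C3 (chr17:57203970-57228136), C4b (chr17:34728380-34743882), C5ar1 (chr7:16246743-16259540) and Serping1 (chr2:84765387-84775444). The counts are per gene from 3′ ends and do not tell exons or isoforms apart. RefSeq promoters on GRCm38.p6, from 250 bases before to 50 bases after the start, were at hand for 6 of the 9 genes. Of 5 motifs searched on both strands, GAGGAA, the core bound by the myeloid factor PU.1, was found in C1qb and C1qc, and TTGCNNAA, a C/EBP site, in C3 and C1s1. Among all 27025 promoters of this length, 28.3% held the first and 10.8% the second, so a match is a description and not a site. The motifs TTCNNNGAA (8.47% of promoters), TGCTGAC (4.58%) and a pair of GAAA set 2 bases apart (3.49%) were found in none of the 6. The promoters of the C1q pair that moved together across classes, and of C3 and C1s1, whose highest classes in MGJ were stromal, are printed 5′ to 3′ on the gene's strand, with the GAGGAA match (or its reverse complement) in capitals in the first pair and the TTGCNNAA match in the second.
C1qb, chr4:136886151-136886450, minus strand: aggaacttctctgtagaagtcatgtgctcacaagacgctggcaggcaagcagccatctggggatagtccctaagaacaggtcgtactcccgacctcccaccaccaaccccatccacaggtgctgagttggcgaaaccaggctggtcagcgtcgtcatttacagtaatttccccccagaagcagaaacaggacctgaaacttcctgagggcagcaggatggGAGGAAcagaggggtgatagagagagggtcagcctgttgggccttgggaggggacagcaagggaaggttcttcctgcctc
C1qc, chr4:136892865-136893164, minus strand: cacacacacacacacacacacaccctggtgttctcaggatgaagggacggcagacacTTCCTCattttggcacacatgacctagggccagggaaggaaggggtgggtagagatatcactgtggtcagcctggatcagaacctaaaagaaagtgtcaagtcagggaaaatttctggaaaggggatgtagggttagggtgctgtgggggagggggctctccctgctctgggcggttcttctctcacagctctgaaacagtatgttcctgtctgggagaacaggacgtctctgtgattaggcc
C3, chr17:57228087-57228386, minus strand: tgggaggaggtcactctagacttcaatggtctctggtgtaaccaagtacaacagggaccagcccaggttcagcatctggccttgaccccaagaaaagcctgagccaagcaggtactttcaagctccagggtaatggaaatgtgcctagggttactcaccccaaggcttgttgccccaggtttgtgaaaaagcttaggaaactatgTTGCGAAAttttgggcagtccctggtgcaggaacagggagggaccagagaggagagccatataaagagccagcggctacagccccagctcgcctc
C1s1, chr6:124542310-124542609, minus strand: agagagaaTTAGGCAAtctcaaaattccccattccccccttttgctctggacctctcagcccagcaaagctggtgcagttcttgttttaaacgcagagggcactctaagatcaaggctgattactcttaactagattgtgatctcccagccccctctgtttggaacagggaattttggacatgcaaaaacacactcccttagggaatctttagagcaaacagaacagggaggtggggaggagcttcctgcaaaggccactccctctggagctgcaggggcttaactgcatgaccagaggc
Counted from the start, the match lies at -30 to -25 in C1qb and at -193 to -188, on the opposite strand, in C1qc. It lies at -45 to -38 in C3 and at -242 to -235, on the opposite strand, in C1s1.

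**Figure D1:**
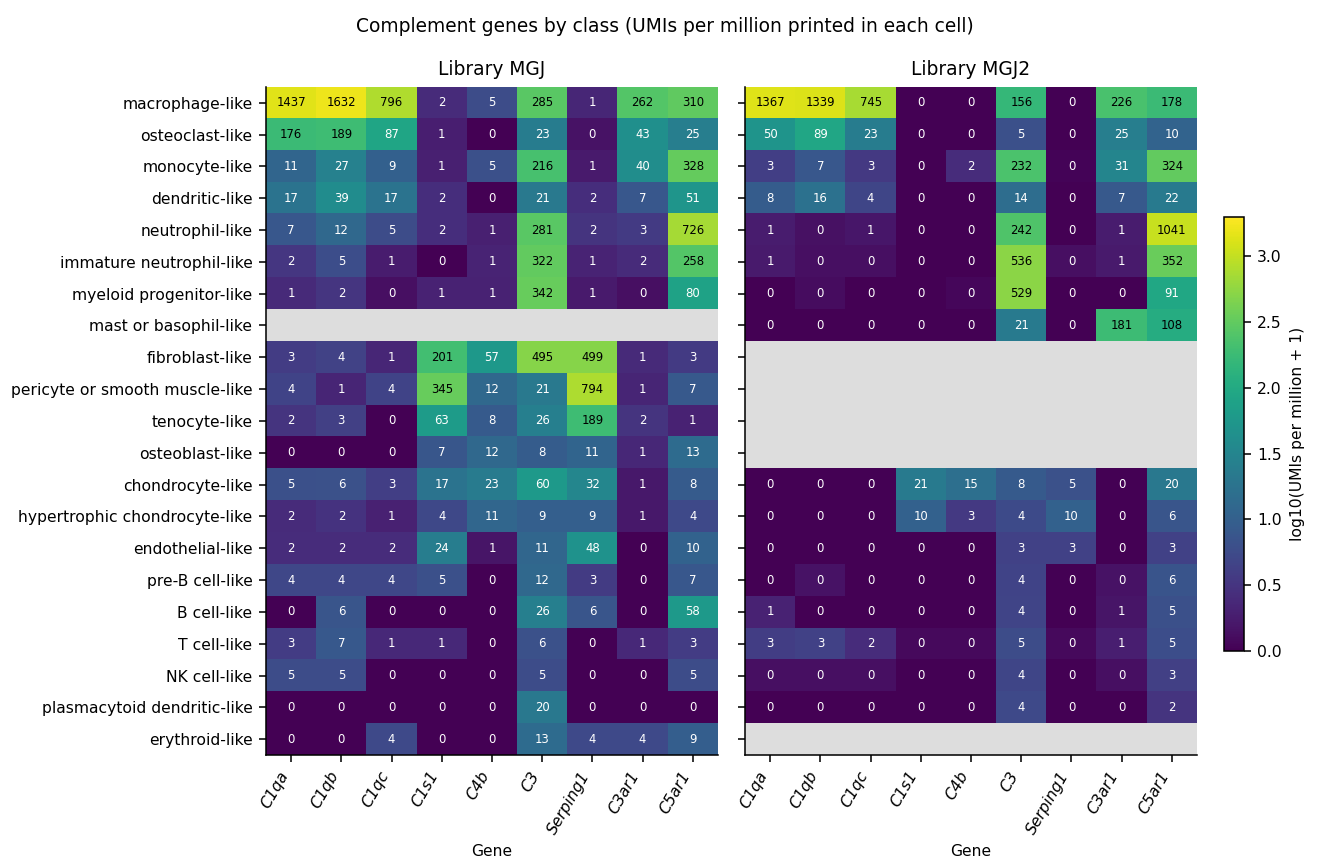
Levels of the 9 genes (columns) in each cell class (rows) of library MGJ (left) and library MGJ2 (right), in CPM, printed in each field and colored on a log10 scale. Grey fields are classes with under 20 cells in that library. The C1q chains stand out in macrophage-like cells and C5ar1 in neutrophil-like cells. C1s1 and Serping1 stand out in pericyte or smooth muscle-like and fibroblast-like cells of MGJ. C3 stands out in fibroblast-like cells of MGJ and in several myeloid classes of both libraries.

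The C1q chains form the recognition unit of the classical pathway. They were concentrated in macrophage-like cells of both libraries. C1qa stood at 1437 CPM (1417 to 1458) in the 1559 macrophage-like cells of MGJ and at 1367 CPM (1255 to 1487) in the 34 of MGJ2. C1qb stood at 1632 CPM and 1339 CPM, and C1qc at 796 CPM and 745 CPM. These levels were far above those of every other class: in MGJ the next class, osteoclast-like cells, held 176 CPM of C1qa, so that macrophage-like cells were 8.16-fold higher (7.39 to 9.03). Macrophage-like cells of MGJ were 132-fold higher than monocyte-like cells for C1qa (99.0 to 182), 60.4-fold for C1qb (50.2 to 73.4) and 86.9-fold for C1qc (63.3 to 123). Because C1qa, C1qb and C1qc were among the 10 leading genes of the macrophage-like cluster, although kept out of the clustering genes and markers, this is a description of that cluster and no test.

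Osteoclast-like cells, the multinucleate bone-resorbing relatives of macrophages, came next for all chains. C1qb stood at 189 CPM in the 97 osteoclast-like cells of MGJ and at 89.1 CPM in the 53 of MGJ2. Among the classes with at least 50 cells in MGJ2, osteoclast-like cells were the highest for all 3 chains, its 34 macrophage-like cells falling under that number. Dendritic-like cells held C1qb at 39.4 CPM in MGJ and 16.0 CPM in MGJ2, above monocyte-like cells in MGJ2 by 2.31-fold (1.65 to 3.21), while in MGJ the interval of that ratio (0.889 to 2.30) included 1. Monocyte-like cells of MGJ held C1qb at 27.0 CPM, 6.63-fold above pre-B cell-like cells (2.21 to 32.6). Within the monocyte-like class of MGJ, C1qb ran from 3.38 CPM in a cluster with cell-cycle genes among its leading genes to 133 CPM in a cluster led by Cd83, Adgre4 and Cx3cr1 among others, with 82 cells there and 1378 in MGJ2. In MGJ2 that cluster was not the highest: C1qb reached 45.2 CPM in the cluster with Ms4a4c and Ifi209 among its leading genes.

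For shares of cells with a UMI, each cell was thinned to 2000 UMIs and shallower cells were left out. In MGJ this kept 1445 of 1559 macrophage-like, 101 of 215 pre-B cell-like and 819 of 2006 neutrophil-like cells. The thinned shares thus describe the deeper cells of a class. Among the macrophage-like cells of MGJ so kept, 56.8% held a UMI of at least 1 chain and 37.4% held all 3. Among pre-B cell-like cells of MGJ 2.97% held at least 1 chain and none of 101 held all 3. Unthinned, C1qb was found in 58.4% of macrophage-like cells, whose median was 7657 UMIs, and in 1.40% of pre-B cell-like cells, whose median was 1895 UMIs. Of the osteoclast-like cells of MGJ 19.8% held at least 1 chain after thinning and 4.40% held all 3. C1q RNA was thus not detected in every macrophage-like cell, also without thinning. The 1559 macrophage-like cells of MGJ held 21867 C1qb UMIs, yet 58.4% of them held any. The class levels are therefore averages over cells with and without a detected UMI.

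The chains were not in the same proportion in every class. Of the 51799 C1q UMIs in macrophage-like cells of MGJ, 37.2% were C1qa, 42.2% C1qb (41.8 to 42.6) and 20.6% C1qc, and the 1376 UMIs in those of MGJ2 split into 39.6%, 38.8% and 21.6%. In monocyte-like cells C1qb took a larger share, 57.4% of 195 UMIs in MGJ (50.2 to 64.5) and 55.1% of 198 UMIs in MGJ2 (47.8 to 62.1). Dendritic-like cells of MGJ2 were also higher in C1qb, at 57.0% of 100 UMIs (46.7 to 66.9). Osteoclast-like cells matched the macrophage-like split in MGJ, with 41.8% C1qb (38.8 to 44.9), but held 54.9% C1qb in MGJ2 (49.1 to 60.6). The intervals of the C1qb share in monocyte-like cells thus lay wholly above those in macrophage-like cells in both libraries. In MGJ, however, monocyte-like cells were not told apart from pre-B cell-like cells for C1qa (2.66-fold, 0.855 to 13.4) and C1qc (2.25-fold, 0.714 to 11.4). In MGJ2 they were above them for both, with lower limits of 1.81 and 1.47. Neutrophil-like cells of MGJ, whose C1qb was not told apart from that reference (2.95-fold, 0.955 to 14.8), held 50.5% C1qb (40.3 to 60.7). The part of other cells' RNA in these shares was not tested.

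**Figure D2:**
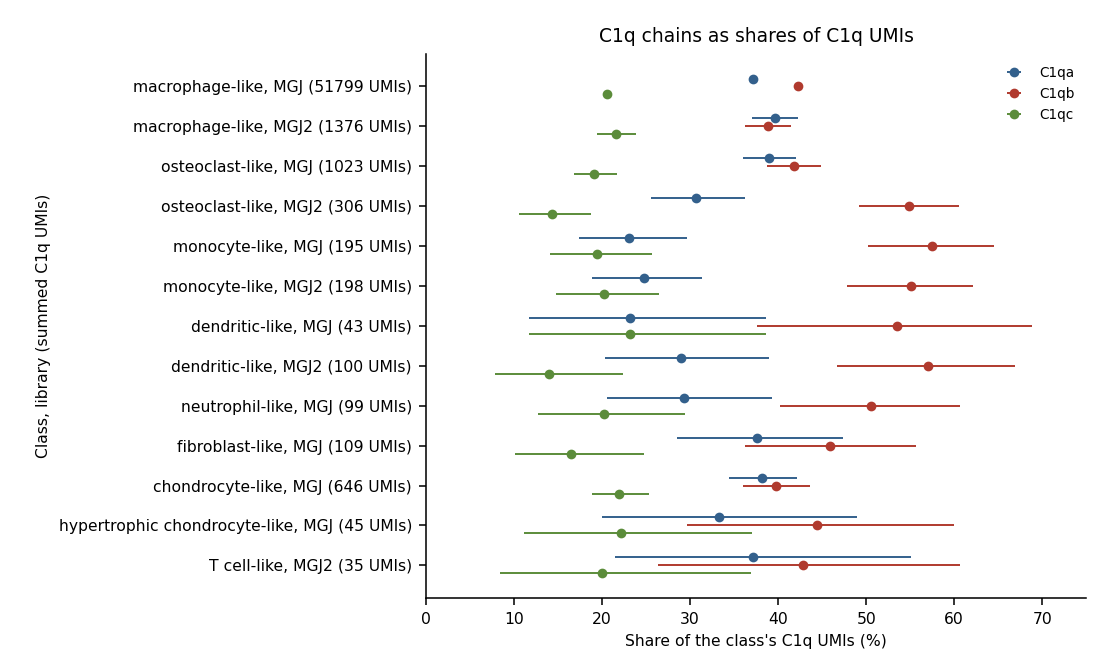
Share of each C1q chain (x axis, percent) in the C1q UMIs of a class (rows, with the number of UMIs), with exact 95% binomial intervals. C1qb took 42.2% in macrophage-like cells of MGJ and over 55% in monocyte-like cells of both libraries, with C1qa at 23.1% and 24.7% there.

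Chondrocytes held little C1q. In the 2181 chondrocyte-like cells of MGJ C1qa stood at 5.39 CPM, C1qb at 5.61 CPM and C1qc at 3.10 CPM, and their ratios to pre-B cell-like cells had intervals that included 1 (for C1qa 1.32, 0.448 to 6.46). After thinning, 1.31% of chondrocyte-like cells held at least 1 chain, not above the 2.97% of the pre-B cell-like reference (3 of 101 cells), so no C1q expression is read from that share. In the 50 chondrocyte-like cells of MGJ2 none of the 3 chains had a UMI, which with 1454923 UMIs allows up to 2.06 CPM each. Of the 646 C1q UMIs in chondrocyte-like cells of MGJ, 66.3% lay in a single cluster of 228 cells led by Wnt7b, Serpine2 and Igf2. In that cluster C1qa reached 41.7 CPM and C5ar1 52.7 CPM, and the neutrophil marker list (8 of 8 with UMIs) summed to 8580 CPM against 212 to 500 CPM in the other 7 chondrocyte-like clusters. Its fibroblast list (10 of 10 with UMIs) summed to 9745 CPM, within the 4408 to 12984 CPM of the others. Its macrophage list (9 of 10 with UMIs, Cd163 at 0) summed to 248 CPM, against 74.3 to 236 CPM in the others. The part of other cells' RNA in its values was not tested.

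The protease C1s and its inhibitor were highest in stromal classes, but not in osteoblast-like cells. Fibroblast-like cells of MGJ exceeded osteoblast-like cells 30.2-fold for C1s1 (12.9 to 93.1) and 46.8-fold for Serping1 (23.7 to 108). The osteoblast-like cells held 5 and 8 UMIs of these genes. C1s1 stood at 345 CPM (306 to 387) in pericyte or smooth muscle-like cells of MGJ, the contractile cells of vessel walls in a cluster led by Rgs5 and Myh11, at 201 CPM (194 to 209) in fibroblast-like cells and at 63.4 CPM in tenocyte-like cells. In MGJ2 the same order came from few cells, with 69 UMIs (817 CPM) in 6 pericyte or smooth muscle-like cells and 24 UMIs (223 CPM) in 6 fibroblast-like cells. Myeloid classes were near 0 for C1s1: macrophage-like cells of MGJ held 1.57 CPM, and the myeloid cells of MGJ2 held no UMI among 36692080. Pericyte or smooth muscle-like cells of MGJ exceeded fibroblast-like cells 1.71-fold (1.51 to 1.94) for C1s1. Under 5 alternatives of filtering or naming cells the highest class for C1s1 and Serping1 in MGJ was another one, fibroblast-like in 4 and mesenchymal progenitor-like in 1.

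Serping1 followed C1s1 across the classes of MGJ. It stood at 794 CPM (734 to 857) in pericyte or smooth muscle-like, 499 CPM (487 to 511) in fibroblast-like, 189 CPM in tenocyte-like and 47.7 CPM in endothelial-like cells of MGJ. In MGJ2 its 6 pericyte or smooth muscle-like cells held 77 UMIs (912 CPM) and its 6 fibroblast-like cells 28 UMIs (260 CPM). Across the 19 classes of at least 50 cells in MGJ, the log2 levels of C1s1 and Serping1 had a Pearson r of 0.99, and across the 14 of MGJ2 0.88. The 14 classes of MGJ2 included no stromal class. Of these, chondrocyte-like cells held 31 C1s1 and 8 Serping1 UMIs, and hypertrophic chondrocyte-like cells 15 and 15. The second class over the first was at 0.448 (0.225 to 0.856) for C1s1 and 1.74 (0.692 to 4.73) for Serping1. The 0.88 thus does not show that Serping1 followed C1s1 there. Both r values are descriptions over classes of 1 library each. After thinning, 75.5% of pericyte or smooth muscle-like and 38.3% of fibroblast-like cells of MGJ held a Serping1 UMI, against 0 of 101 pre-B cell-like cells, which, with 3 counts as the limit for a count of 0, allows a share of cells with a UMI of up to 2.97%. Unthinned, the shares were 91.9%, 70.7% and 0.930%, at median depths of 6642, 15211 and 1895 UMIs. Macrophage-like cells of MGJ held Serping1 at 1.27 CPM, so that fibroblast-like cells were 393-fold higher (245 to 676).

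C4b, the fourth component that C1s cleaves, was lower. It stood at 57.0 CPM (53.1 to 61.0) in fibroblast-like and 22.6 CPM (21.2 to 24.0) in chondrocyte-like cells of MGJ, and at 15.1 CPM (9.48 to 22.9) in the chondrocyte-like cells of MGJ2. Pre-B cell-like cells had no C4b UMI, which allows up to 4.07 CPM in MGJ and 1.34 CPM in MGJ2, and chondrocyte-like cells of both libraries lay above that. In MGJ 53.6% of the gene's kept UMIs came from chondrocyte and hypertrophic chondrocyte cells, near the 48.9% of the UMIs of all genes that these cells held. Hypertrophic chondrocyte-like cells, the enlarged cells that precede bone, were lower than chondrocyte-like cells in both libraries, by 1.98-fold in MGJ (1.63 to 2.43) and 5.93-fold in MGJ2 (2.02 to 23.7), the latter from 4 and 22 UMIs. C4b has a close copy, C4a, with which 38.1% of the 50-base windows in its last 500 bases are shared, and C1s1 shares 18.0% with C1s2, so reads of these pairs may be split or lost. The copies themselves were near 0, at no more than 4.38 CPM (C4a, from 1 UMI) and 0.282 CPM (C1s2) in any class of at least 50 cells.

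C3, the central component, was found in both compartments. In MGJ it was highest in fibroblast-like cells at 495 CPM (484 to 507), followed by myeloid progenitor-like cells at 342 CPM (321 to 365), immature neutrophil-like at 322 CPM, macrophage-like at 285 CPM, neutrophil-like at 281 CPM and monocyte-like cells at 216 CPM. In MGJ2 immature neutrophil-like cells held 536 CPM (508 to 564) and myeloid progenitor-like cells 529 CPM (512 to 546), which could not be told apart (1.01-fold, 0.952 to 1.08). Mature neutrophil-like and monocyte-like cells of MGJ2 were lower, at 242 CPM and 232 CPM. Immature exceeded mature neutrophil-like cells 2.21-fold in MGJ2 (2.05 to 2.39), where the 3 mature clusters lay at 137 to 247 CPM. In MGJ the ratio of the classes was 1.15 (1.05 to 1.25), but the 4 mature clusters ran from 87.4 to 455 CPM on both sides of the immature 322 CPM, so the direction there depends on the clusters counted. All of these were above pre-B cell-like cells, with monocyte-like cells 17.7-fold higher in MGJ (9.26 to 38.8) and 64.8-fold in MGJ2 (32.8 to 150). Osteoclast- and dendritic-like cells were low among the myeloid classes, at 23.0 and 20.6 CPM in MGJ and 5.30 and 14.3 CPM in MGJ2. After thinning, 65.5% of myeloid progenitor-like cells of MGJ2 and 46.4% of those of MGJ held a C3 UMI, against 0.980% and 2.97% of pre-B cell-like cells.

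Within the fibroblast-like class the stromal members were carried by 1 of 2 clusters. The cluster of 300 MGJ cells led by Clec3b, Dpt and Gzme, with the matrix genes Col14a1 and Tnxb among its leading genes, had C3 at 1385 CPM, Serping1 at 1270 CPM, C1s1 at 478 CPM and C4b at 162 CPM. The cluster of 595 cells led by Pamr1, Aspn and Dkk3 had 67.7, 129, 68.2 and 6.58 CPM. The first cluster held 33.5% of the fibroblast-like cells and 90.8% of their C3 UMIs, 82.6% of their Serping1 UMIs and 92.2% of their C4b UMIs. An unnamed cluster of 163 MGJ cells led by Grem1 and Mmp10 had Serping1 at 686 CPM, C1s1 at 272 CPM and C3 at 262 CPM. At 2000 UMIs per cell, 21.6% of fibroblast-like cells held both a C3 and a Serping1 UMI. The stromal members were thus high together in the first cluster, while pericyte or smooth muscle-like cells held C1s1 and Serping1 with C3 at 20.6 CPM.

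**Figure D3:**
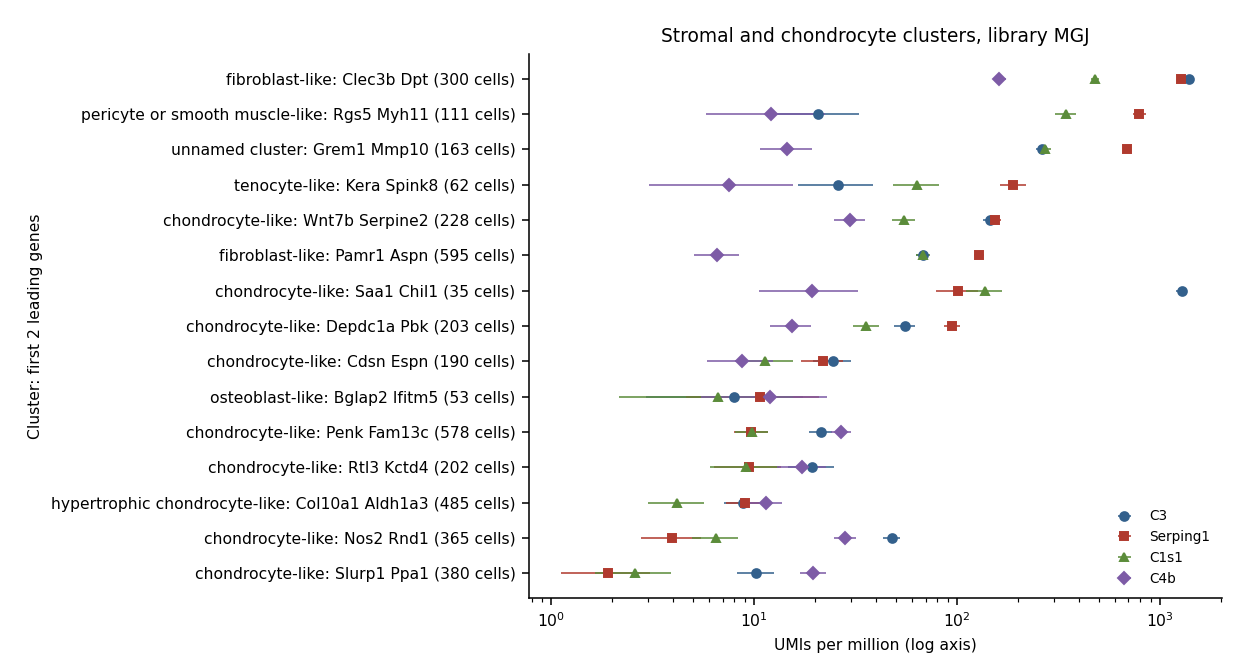
Levels of C3, Serping1, C1s1 and C4b (x axis, CPM, log scale) in each stromal and chondrocyte cluster of library MGJ (rows, named by class and the first 2 leading genes), with exact Poisson 95% intervals. All 4 genes were highest in the fibroblast-like cluster led by Clec3b and Dpt, and the chondrocyte-like cluster led by Saa1 and Chil1 stood out for C3 at 1279 CPM.

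Chondrocyte-like cells held C3 at 59.8 CPM (57.6 to 62.1) in MGJ, 4.90-fold above pre-B cell-like cells (2.58 to 10.7), and at 7.56 CPM in MGJ2, where the ratio of 2.11 had an interval of 0.773 to 6.05. A cluster of 35 MGJ cells led by Saa1, Chil1 and Mmp3, with the acute-phase genes Hp, Lbp and Saa3 among its leading genes, held C3 at 1279 CPM (1198 to 1365). These cells were 1.60% of the chondrocyte-like cells and held 33.7% of their C3 UMIs. Their cartilage list (12 of 12 with UMIs) summed to 55973 CPM, against 59734 to 127524 CPM in the other chondrocyte-like clusters, and no MGJ2 cell fell in this cluster. Their fibroblast list (10 of 10 with UMIs) was the highest of the chondrocyte-like clusters, at 12984 CPM against 4408 to 10622 CPM, and its part in their C3 was not tested. In the other 7 clusters C3 ran from 10.2 CPM in the cluster led by Slurp1 to 146 CPM in the cluster led by Wnt7b. Hypertrophic chondrocyte-like cells of MGJ held C3 at 8.87 CPM, 6.75-fold under chondrocyte-like cells (5.45 to 8.45). Their ratio to pre-B cell-like cells was 0.726 (0.365 to 1.64), so C3 in them was not detectable above the reference at this depth. In MGJ2 the ratio of chondrocyte-like to hypertrophic chondrocyte-like cells was 1.70 with an interval of 0.600 to 5.16.

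The receptors were found mainly in myeloid classes and differed in their cells. C3ar1, the receptor for C3a, stood at 262 CPM (254 to 271) in macrophage-like cells of MGJ and 226 CPM (182 to 277) in those of MGJ2. In MGJ2 it also stood at 181 CPM (152 to 214) in 102 mast or basophil-like cells, a class with no cell in MGJ and outside the pooled myeloid group. Monocyte-like cells held 40.0 CPM and 30.8 CPM, and osteoclast-like cells 43.3 CPM and 24.9 CPM, with overlapping intervals in both libraries, so that their order could not be told apart. Neutrophil-like cells held 2.65 CPM and 0.789 CPM, so that monocyte-like cells were 15.1-fold higher in MGJ (8.23 to 30.9) and 39.0-fold higher in MGJ2 (15.1 to 144). After thinning, 35.0% of macrophage-like cells of MGJ and 40.0% of mast or basophil-like cells of MGJ2 held a C3ar1 UMI, against 0 of 101 and 0 of 306 pre-B cell-like cells. C3ar1 was also among the 10 leading genes of the macrophage-like cluster.

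C5ar1, the receptor for C5a, was highest in neutrophil-like cells of both libraries. It stood at 726 CPM (700 to 752) in MGJ and 1041 CPM (1013 to 1069) in MGJ2. Immature neutrophil-like cells held 258 CPM and 352 CPM, and mature cells exceeded them 2.82-fold (2.59 to 3.06) and 2.96-fold (2.76 to 3.17). Myeloid progenitor-like cells held 79.6 CPM and 91.4 CPM, so the order from progenitor to immature to mature neutrophil-like cells was rising for C5ar1 in both libraries. For C3 the mature class was the lowest of these 3 in both libraries, with the limit given above for MGJ. Monocyte-like cells held C5ar1 at 328 CPM and 324 CPM and macrophage-like cells at 310 CPM and 178 CPM, and in MGJ these classes could not be told apart (1.06-fold, 0.993 to 1.12). Deep enough for thinning were 819 of the 2006 neutrophil-like cells of MGJ and 1342 of the 1925 of MGJ2. Of these, 67.0% and 78.2% held a C5ar1 UMI after thinning, against 0 of 101 and 1.96% of pre-B cell-like cells. At that depth 15.7% of macrophage-like cells of MGJ and 14.0% of mast or basophil-like cells of MGJ2 held both receptors. The unnamed low-UMI cluster of MGJ held C5ar1 at 719 CPM and C3 at 488 CPM, and its neutrophil list summed to 78362 CPM.

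**Figure D4:**
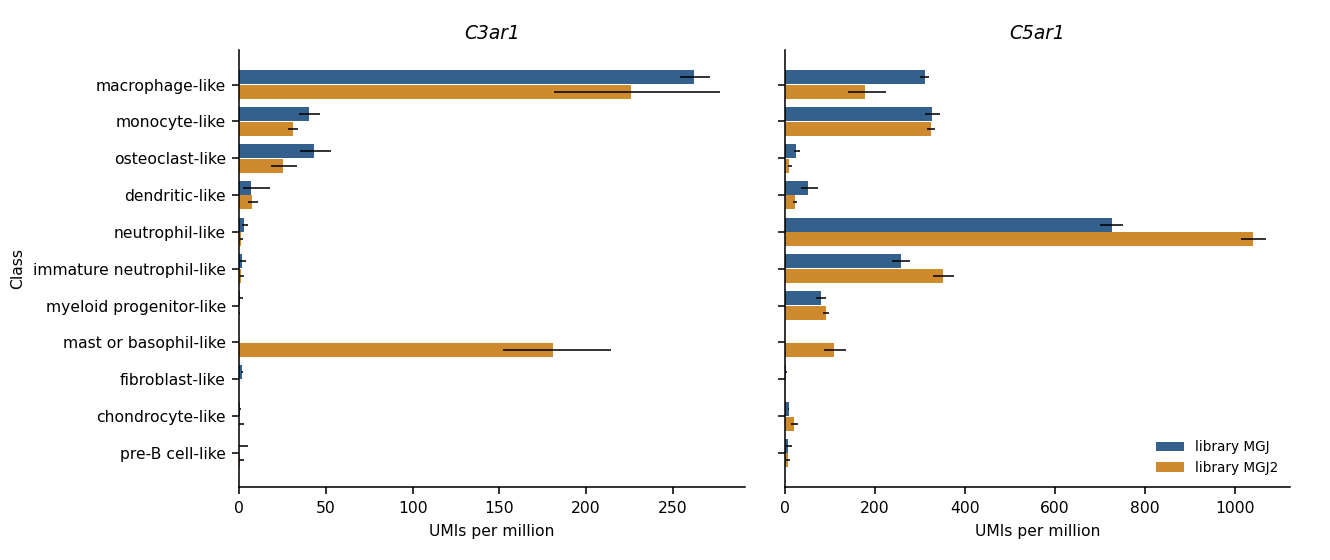
Levels of C3ar1 (left) and C5ar1 (right) by class in library MGJ and library MGJ2, as bars in CPM with exact Poisson 95% intervals. C3ar1 was highest in macrophage-like and, in MGJ2, mast or basophil-like cells, and C5ar1 in neutrophil-like cells at 726 and 1041 CPM. A class with no bar for MGJ has no cell there.

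The members were then set against each other in 2 pooled contrasts within each library, over genes with at least 50 UMIs in both groups together, and a gene was counted as higher or lower past a ratio of 2. In MGJ myeloid cells held 5 of the 9 members at least 2-fold higher than stromal cells and 3 at least 2-fold lower, where 17.9% of all 12368 genes tested were higher and 31.3% lower. The higher members were C1qa (239-fold, 179 to 326), C1qb (231-fold), C1qc (289-fold), C3ar1 (84.5-fold, 57.1 to 131) and C5ar1 (97.9-fold, 74.9 to 130). The lower ones were C1s1, Serping1 and C4b, with ratios of 0.00660 (0.00466 to 0.00908), 0.00253 (0.00177 to 0.00351) and 0.0654 (0.0525 to 0.0807). C3 fell between, with a ratio of 0.608 (0.589 to 0.628). With each cell named by its own highest marker score the ratios kept their side of 1 but lay nearer to it, at 64.9 for C1qa, 14.0 for C5ar1 and 0.00735 for Serping1. In MGJ2, where 20.8% of 11184 genes were higher and 23.2% lower, 6 of 8 members tested were higher and 2 lower. C3 was there 14.8-fold higher in myeloid cells (8.26 to 29.6), from 11 stromal UMIs, and the stromal cells were 14 osteoblast-like, 6 fibroblast-like and 6 pericyte or smooth muscle-like. C1qa, C1qb and C1qc had no stromal UMI in MGJ2 and were at least 3.89-fold, 4.70-fold and 2.15-fold higher, with 3 UMIs over the group as the floor.

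The ratio of C3 thus lay on different sides of 1 in the libraries. All 11 stromal C3 UMIs of MGJ2 were in its 6 fibroblast-like cells, at 102 CPM, against 495 CPM in the 895 fibroblast-like cells of MGJ. These averages are over unlike mixes of clusters. Of the 6 cells 5 fell in the cluster led by Pamr1 and Aspn, which held C3 at 67.7 CPM in MGJ. The remaining 1 fell in the cluster led by Clec3b and Dpt, at 1385 CPM in MGJ. The part of this make-up in the C3 ratios was not tested. The median log2 ratio of myeloid over stromal cells was 6.40 over the members of MGJ, against -0.32 over all genes tested. In MGJ2 it was 2.10 over the members tested, with genes at 0 set to the floor, against -0.11. The 2.10 lies between the bounds of C1qa and C1qb and is thus itself a lower bound. Members lay on both sides of a ratio of 1 in both libraries, so neither median stands for all of them. Over the 30 genes of a list of 51 complement genes that had enough UMIs in MGJ, 13 were higher and 14 lower, and the list's median was -0.62. In MGJ2 13 of 23 were higher and 5 lower.

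In chondrocyte over stromal cells most members were lower. In MGJ 5 of the 9 members were at least 2-fold lower, where 17.2% of 13174 genes were, and 2 were at least 2-fold higher, where 11.1% were. The lower ones were Serping1 (ratio 0.0592, 0.0560 to 0.0625), C1s1 (0.0761), C3 (0.120), C4b (0.413) and C3ar1 (0.419, from 35 and 25 UMIs). The higher ones were C1qc at 2.17 (1.37 to 3.60) and C5ar1 at 2.26 (1.70 to 3.06), with chondrocyte levels of 2.73 and 7.31 CPM. Without the cluster led by Wnt7b, an alternative chosen after the data were seen, neither passed: C1qc was at 0.805 (0.477 to 1.41) and C5ar1 at 1.07 (0.782 to 1.47). Serping1 then lay lower still, at 0.0366 (0.0341 to 0.0393). In MGJ2, where 8.19% of 6421 genes were lower and 9.48% higher, 3 members had enough UMIs. Of these, C1s1 (0.0929) and Serping1 (0.0413) were lower and none was higher, and C5ar1 was at 0.588 (0.307 to 1.20). Of the complement list 29 genes had enough UMIs in MGJ, of which 4 were higher and 14 lower, and 9 in MGJ2, of which none was higher and 4 were lower.

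**Figure D5:**
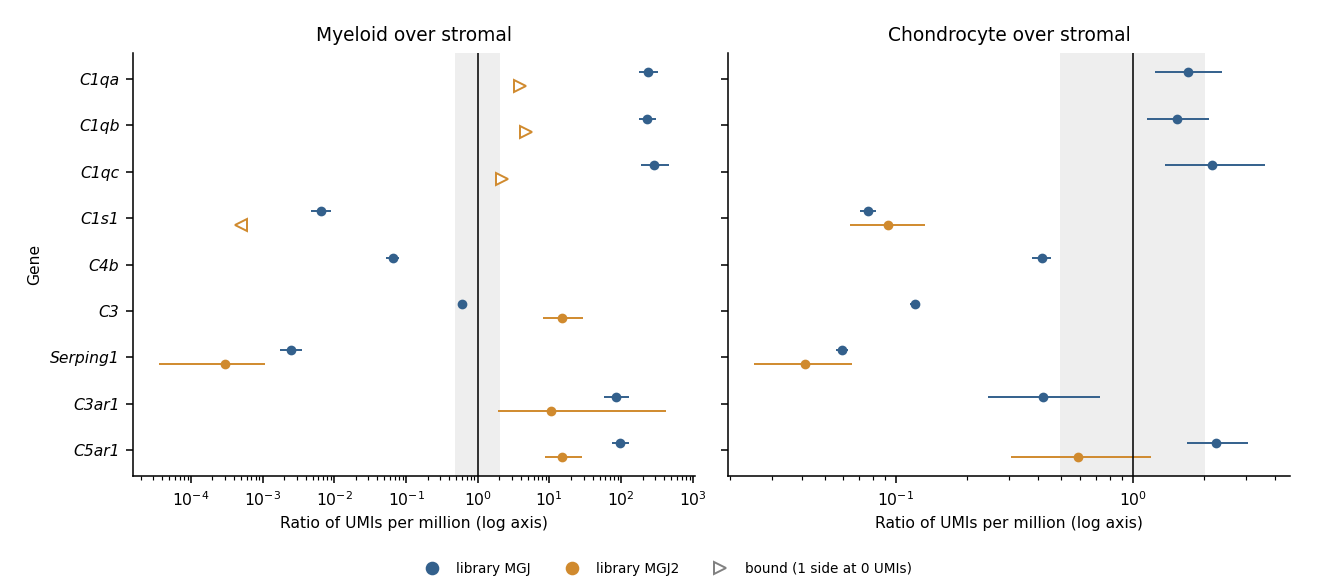
Ratio of CPM (x axis, log scale) between pooled myeloid and stromal cells (left) and between chondrocyte and stromal cells (right) for each gene in libraries MGJ and MGJ2, with exact conditional 95% intervals; open triangles are bounds where 1 side had no UMI. Grey marks ratios between 0.5 and 2. In the left panel the C1q chains and receptors lie to the right and C1s1, C4b and Serping1 to the left, while C3 lies at 0.608 in MGJ and 14.8 in MGJ2.

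The kept UMIs of most members lay largely in 1 group of cells. In MGJ myeloid cells, with 41.4% of kept cells and 26.4% of the UMIs of all genes, held 98.2% of the C1qa UMIs, 97.9% of the C3ar1 UMIs and 73.5% of the C5ar1 UMIs, and 22.7% of the C5ar1 UMIs lay in unnamed cells. Stromal cells, with 9.28% of kept cells and 14.7% of the UMIs of all genes, held 67.0% of the Serping1 UMIs, 64.2% of the C1s1 UMIs, 38.9% of the C4b UMIs and 34.5% of the C3 UMIs. C3 was the most evenly divided of the 9 between these groups in MGJ, with 37.7% of its UMIs in myeloid cells. In MGJ2 myeloid cells, with 62.0% of kept cells and 68.4% of the UMIs of all genes, held 98.5% of the C3 UMIs. Stromal cells, only 0.354% of kept cells there, held 0.108%. Of the C3ar1 UMIs of MGJ2 81.1% lay in myeloid cells and 17.9% in other named classes, mast or basophil-like cells among them.

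The rest of the pathway, from the list of 51 genes, was covered in part. At least 100 CPM in a named class of 50 or more cells was reached by 23 of the 51 genes, among them every member but C4b. The share of all genes that reach this level was not computed. These counts and those by role below therefore describe the list and do not say whether it stands out. Of the 10 classical pathway genes 5 did, adding C1ra, the protease that activates C1s, at 100 CPM in fibroblast-like cells of MGJ. C2, the other substrate of C1s, reached 52.2 CPM in pericyte or smooth muscle-like cells. Of 4 alternative pathway genes 3 did: C3, Cfb (factor B, 145 CPM in fibroblast-like cells of MGJ) and Cfp (properdin, 351 CPM in macrophage-like cells of MGJ and 112 CPM in dendritic-like cells of MGJ2). Of 9 lectin pathway genes 2 did, Fcnb (a ficolin, 466 and 730 CPM in myeloid progenitor-like cells) and Colec12. None of the 7 terminal pathway genes did. The gene for C5 (Hc), which gives the ligand of C5ar1, reached at most 1.71 CPM, from 1 UMI in dendritic-like cells of MGJ.

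Among the 11 inhibitors 6 reached 100 CPM. Besides Serping1 these included Cd55 (199 and 291 CPM in B cell-like cells), Vtn (225 CPM in pericyte or smooth muscle-like cells of MGJ), Clu (139 CPM in fibroblast-like cells of MGJ) and Cr1l. Of the 10 receptors 7 did, among them the second C5a receptor C5ar2, at 125 CPM in neutrophil-like cells of MGJ2 and 23.3 CPM in those of MGJ. The integrin chains Itgam and Itgb2 together bind a fragment of C3, but their highest classes differed. Itgam reached 420 CPM in MGJ and 999 CPM in MGJ2, both in immature neutrophil-like cells. Itgb2 reached 342 CPM in macrophage-like cells of MGJ and 633 CPM in neutrophil-like cells of MGJ2. The remaining 28 genes stayed under 100 CPM, and 3 of the 51 had no UMI in either library.

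For each member the genes outside the complement list whose levels ran most like it over classes were found by the smaller of the 2 libraries' Pearson r of log2(CPM + 10), among 7495 genes. For C1qa, C1qb and C1qc these were Ms4a7, Trem2 and Cyp4v3, with r for C1qa of 0.93, 0.86 and 0.85. Ms4a7 and Trem2 were also among the markers that named the macrophage-like cells. C1s1 ran with Fstl1 (0.93), Igfbp5 and Meg3, and Serping1 with Cald1 (0.90), Postn and Igfbp5. C4b ran with Islr (0.87), H19 and Loxl2. C3 had the least close companions, Prdx5 (0.84), Rab32 and Pilrb1. C3ar1 ran with Slc7a8 (0.94), Ccl9 and Cebpa, and C5ar1 with Dmxl2, Clec4e and Arg2 (0.96, 0.95 and 0.95). The points are classes of the same libraries with different depths, so these values are descriptions.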

How the data were processed

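Single-cell RNA-seq was measured in 2 libraries of mouse fracture callus. The authors deposited filtered matrices of raw UMI counts, with no normalization, whose headers, per the files, name Cell Ranger 4.0.0, and the submitters' processing notes also name Seurat and GRCm38. The labels aim at 5000 cells per library, and the matrices hold 14295 and 8009 barcodes. The matrices were thus filtered before deposit, with lowest counts of 501 and 500 UMIs per barcode in MGJ and MGJ2. Whether empty or nearly empty droplets remain among the barcodes was not tested. Per-gene counts from 3′ ends understate genes whose reads map to several copies.

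Barcodes with under 200 genes or over 20% mitochondrial UMIs were removed, as were doublets scored with Scrublet in scanpy 1.11.5. Its automatic threshold called 0 barcodes in MGJ, so in both libraries the highest scores up to the expected rate (0.8% per 1000 barcodes) were removed, 1380 in MGJ and 460 in MGJ2. Both libraries were clustered together without integration (2000 variable genes, 30 components, 15 neighbours, Leiden resolution 1, leidenalg 0.10.2, igraph 0.11.9, scikit-learn 1.9.0). Clusters whose best list was stromal or chondrocyte were then clustered once more together, with the same settings on variable genes of their own, before naming. The 51 complement genes were kept out of the clustering genes and the 27 marker lists. Clusters of 20 or more cells were named after the list with the highest score. The score had to be at least 1, or at least 2 where no own marker was among the 10 leading genes. At least 3 markers had to be found in at least 10% of the cells. A cluster stayed unnamed where markers of other classes led it or where its median UMI count was under the library's divided by 3 with no own marker among its 10 leading genes. These thresholds were set after the leading genes of clusters were seen, the C1q chains and C3ar1 among them.

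Levels were summed UMIs of a class per 1000000 UMIs with exact Poisson intervals. Ratios had exact conditional binomial intervals, with 3 UMIs as the floor for a group at 0. Shares of cells had Clopper-Pearson intervals, after cells under 2000 UMIs were left out and the others thinned to 2000 UMIs. All are at 95% and cover counting error only, and the limit printed for a count of 0 is 3 counts of the total in place of the interval's upper bound. The labels put neither library in a group, so no test between samples was made, and the number of libraries limits what the values say about callus in general. Named genes were the 9 members, the complement genes that reached 100 CPM in a class of at least 50 cells, the leading genes of clusters and, for each member, the 3 genes with the most similar levels over classes, among genes with at least 500 UMIs in each library. The members and lists were chosen with earlier results of these data known. Positions were from GENCODE M21 on GRCm38, in which 51 of 51 genes were found by identifier. Only the ratio between pooled groups was tested on simulated data, as Poisson counts drawn from the group totals. All steps were run with Python 3.11.15, numpy 2.4.6, scipy 1.17.1, pandas 2.3.3 and matplotlib 3.10.9. The 15 alternatives covered cell filters, clustering, naming, weighting, copies and group membership. The values of 1 further gene of the complement list are not reported here.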

Additional observations from a re-analysis of the deposited data

Results flagged for a closer look

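The removed barcodes, which no comparison uses, also held UMIs of the 9 genes. In MGJ the 2215 removed barcodes held 17895 of them, with C1qa at 131 CPM, C3 at 159 CPM and Serping1 at 118 CPM. In MGJ2 the 663 removed barcodes held 2588, mostly C5ar1 at 171 CPM and C3 at 141 CPM, while C1qa stood at 0.930 CPM.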

How the results depend on the processing

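Of 15 alternatives, 12 were planned and 3 were chosen after seeing the data. All ratios of myeloid over stromal cells listed for MGJ stayed on their side of 1 in 12 of 12 alternatives, with C3 between 0.551 and 0.812, and C3 in MGJ2 between 9.23 and 19.0. Their sizes moved more: C1qa lay between 64.9 and 349, C1qb between 79.2 and 338, C1qc between 65.5 and 423, C3ar1 between 47.5 and 123, C5ar1 between 14.0 and 128, C1s1 between 0.00576 and 0.0121 and Serping1 between 0.00202 and 0.00735. The ratios of C1q and C5ar1 in chondrocyte over stromal cells of MGJ did not. With doublet calls kept, C1qa was at 0.632 and C1qc at 0.822. With each cell named by its own highest marker score, C1qa was at 0.210, C1qb at 0.368, C1qc at 0.201 and C5ar1 at 0.428. Without the chondrocyte-like cluster led by Wnt7b (added), C1qa was at 0.565, C1qb at 0.789 and C1qc at 0.805. The count of members at least 2-fold higher there, 2 as reported, was 1 with doublet calls kept or with the complement list among the clustering genes, and 0 at Leiden resolution 2, with cells named one by one or without the Wnt7b cluster. With cells named one by one, 8 members were lower in MGJ and 4 in MGJ2, and the highest class was the same for 5 of 9 members in MGJ and 3 of 9 in MGJ2. The cause of these changes was not tested. Thinned to 1000 UMIs, with shallower cells left out, 44.9% of macrophage-like cells of MGJ held a C1qb UMI and 59.2% of neutrophil-like cells of MGJ2 a C5ar1 UMI. Of 114 counts of members, 105 stayed within 1.5 times. Of the levels 173 moved outside the counting interval of the reported value and 439 did not, of the ratios 73 moved, 9 reversed and 214 did neither, and of the shares of cells 14 moved and 4 did not. No paired analysis was possible because the labels give neither groups nor replicate numbers, and with 2 libraries in no group no replicate could be left out. Depth limits stromal levels in MGJ2, where 26 cells gave 592413 UMIs.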
